A study of Homo sapiens with 4 samples.

Results

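A549 cells, a long-established line from a human lung adenocarcinoma, were compared after culture on solidified Matrigel (3D) and on a plastic dish (2D), with both cultures kept in hypoxia at 1% oxygen. The comparison asks which genes stand apart between the supports once oxygen is low, in a study of micropapillary-like structures formed by the line. All cells were wild type per the labels, were grown for 5 days in medium with 5% serum, and gave 1 library of mRNA for each condition. The other 2 of the 4 libraries are the 3D and 2D cultures in normoxia, whose oxygen level was not found among the labels. They hold the same contrast of supports in libraries that the hypoxia comparison does not use.

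The unit was FPKM, the fragments counted per kilobase of a transcript and scaled to the library. How the authors scaled the libraries was not given in the sources used. Of 26255 gene symbols, 12562 were compared: those with a mean of at least 1 FPKM over the 4 libraries, without 101 small RNA genes. The measure was the log2 ratio of (FPKM + 1) in 3D to (FPKM + 1) in 2D, which understates the difference of genes with low values. With 1 library per group no difference has a replicate check. Nothing in the labels says if they are separate experiments, and genes are described by size alone.

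Depth inferred from the steps of the lowest values was about 11300000 fragments in 3D hypoxia and 38700000 in 2D hypoxia, which was 3.43 times deeper. The normoxia libraries came to 11800000 in 3D and 23700000 in 2D. These depths take FPKM as scaled to library depth alone, which is not known. At 1 FPKM, a transcript of 2 kb thus rested on 22.6 fragments in 3D hypoxia and 77.4 in 2D hypoxia. Counting errors from these depths cover the sampling of fragments only, and are given as standard errors of the log2 ratio. They take the median length of a gene's annotated transcripts, which can fall far below the full-length one, and so are approximate. FPKM values summed to 596102 in 3D hypoxia and 519824 in 2D hypoxia.

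Matrigel is a gel extracted from a mouse tumour that makes basement membrane, and it is rich in laminin and type IV collagen. Cells on plastic spread flat and pull on a stiff surface through actin stress fibres and focal adhesions, whereas epithelial cells on a soft gel tend to form rounded, multicellular structures. Serum response factor with its cofactors and the YAP and TAZ coactivators read this tension and drive contractile and matrix genes. In low oxygen, hypoxia-inducible factors (HIF) are no longer destroyed and turn on genes of glucose use, pH control and vessel growth. In airway epithelium, gel-forming mucins and trefoil peptides are products of goblet cells.

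The cells carried the keratins of a carcinoma line in every library. KRT8 stood at 3731 FPKM in 3D hypoxia against 1894 in 2D hypoxia, with 2854 in 3D and 3126 in 2D normoxia. CDH1, or E-cadherin, lay between 24.6 and 37.3 FPKM, while EPCAM was low at 1.43 to 2.73 FPKM. The lung lineage factor NKX2-1 and the surfactant genes SFTPB and SFTPC, which mark alveolar type II cells, were at or near 0 in all 4 libraries. Of 11 blood cell markers, 9 were under 1 FPKM in each library and PTPRC, CD3E and MS4A1 were at or near 0. The 11 summed to 41.5 FPKM in 3D hypoxia and 17.2 in 2D hypoxia, nearly all from CD68 (31.2 and 13.1 FPKM) and CD14 (9.29 and 3.44 FPKM). Of 8 endothelial markers only ESAM passed 1 FPKM, and of 10 fibroblast markers only COL1A1 did, in the 2D libraries, with DCN, FAP and POSTN at or near 0. In bulk RNA, fewer cells of a kind and less RNA per cell cannot be told apart.

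In hypoxia, 467 genes (3.72%) passed 2-fold on the higher side in 3D and 342 (2.72%) on the lower side, so that 57.7% of these genes were higher. The other 93.6% lay within 2-fold, and the median log2 ratio of all genes was -0.03 with an SD of 0.56. At 4-fold, 78 genes were higher and 32 lower. The shares of 3.72% higher and 2.72% lower are the background for the 2-fold counts of every gene list described below. When each library was rescaled to the same FPKM sum, the median of all genes moved by -0.18, and 395 genes were then higher against 687 lower, a share of 36.5% higher. Which direction holds more genes therefore depends on the scaling, whereas 372 of the 467 and all 342 stayed past 2-fold. The medians of the 45 gene lists described below moved by -0.23 to 0.16 on rescaling, with a median shift of -0.19. The common sum was above the sum of either library and 1 was still added, so the added 1 also weighed less. The counts and shifts after rescaling thus mix both effects. Of 777 genes past 2-fold with an annotated length, 466 were more than 2 of these approximate counting errors beyond the 2-fold line. Among the lower genes 59 had under 1 FPKM in 3D hypoxia, and among the higher genes 75 had under 1 FPKM in 2D hypoxia.

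**Figure D1:**
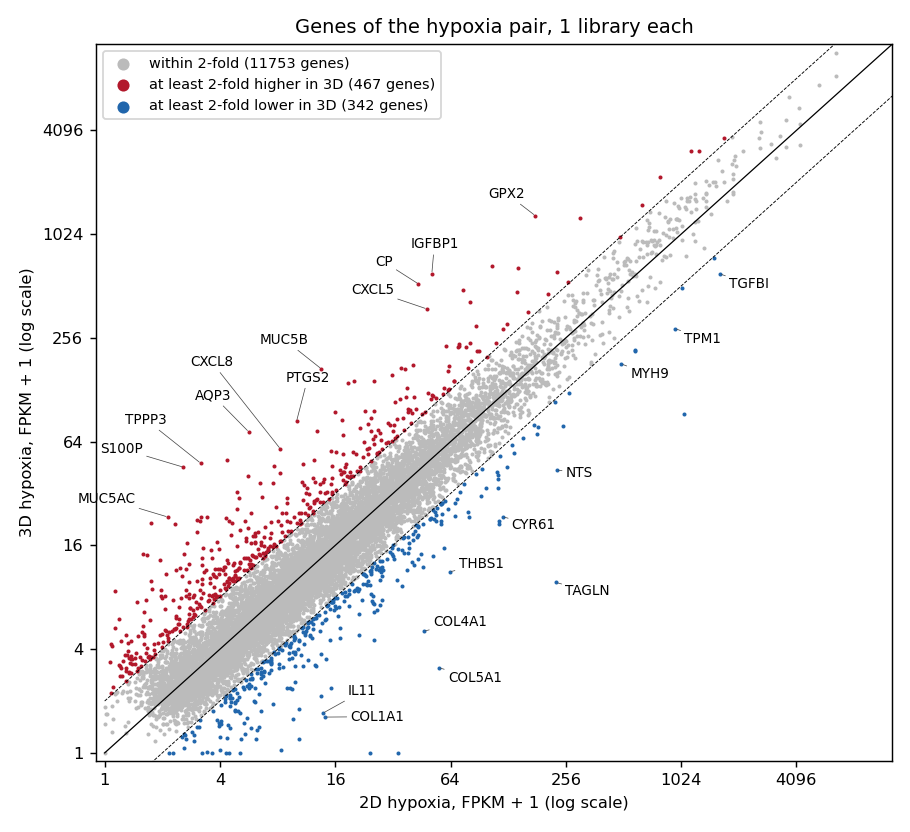
FPKM + 1 of each of the 12562 genes in 2D hypoxia (x axis) and 3D hypoxia (y axis), both on log scales, with 1 library each; the solid line marks equal values and the dashed lines a 2-fold difference. Of the points, 467 lie at or above the upper dashed line, among them S100P, MUC5B and IGFBP1, and 342 lie at or below the lower, among them TAGLN, TPM1 and COL5A1.

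The 20 genes highest in 3D included 2 gel-forming mucins, a trefoil peptide, the chemokine CXCL5, complement C3 and the metal carriers CP and TF. S100P, a calcium-binding protein found in many carcinomas, stood at 44.5 FPKM in 3D hypoxia against 1.58 in 2D hypoxia, with 131 in 3D and 22.4 in 2D normoxia. It was 17.7-fold higher in 3D than in 2D hypoxia on the FPKM + 1 scale, with a log2 ratio of 4.14 and a counting error of 0.11. Its lowest library was 2D hypoxia and its highest 3D normoxia, and both 3D libraries lay above both 2D libraries. AQP3, a channel for water and glycerol, showed the same order, at 72 FPKM in 3D hypoxia against 4.65 in 2D hypoxia, with 179.9 in 3D and 31.2 in 2D normoxia (log2 ratio in hypoxia 3.69, counting error 0.09). TPPP3, which promotes the assembly of tubulin, was instead highest in 3D hypoxia at 46.9 FPKM, against 2.18, 22.6 and 6.003 FPKM in 2D hypoxia, 3D normoxia and 2D normoxia (log2 ratio 3.92).

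Mucins and goblet cell genes had the highest median of the 45 gene lists with at least 5 members compared, though with no filter on low values they came second to the NF-kB and cytokine genes (0.78 against 0.82). Of the 14 compared out of 21 listed, 10 were higher by 2-fold or more in 3D hypoxia, 0 were 2-fold lower and all 14 lay above 0, with a median log2 ratio of 1.61 against -0.03 for all genes. Across the settings tried the size of this median ran from 0.78 with no filter to 2.79 with a pseudocount of 0.1 FPKM, and it was 0.96 with 5 FPKM and 2.68 with a mean of at least 5 FPKM. MUC5B, a gel-forming airway mucin, stood at 168 FPKM in 3D hypoxia against 12.5 in 2D hypoxia, with 301 in 3D and 101 in 2D normoxia (log2 ratio in hypoxia 3.64, counting error 0.02). MUC5AC, the gel-forming mucin typical of goblet cells, read 22.4, 1.14, 61.5 and 10.8 FPKM in the same order (log2 ratio 3.45). SPDEF, a transcription factor of goblet cell differentiation, stood at 18.2 FPKM in 3D hypoxia and 2.04 in 2D hypoxia, and AGR2, a disulphide isomerase needed for mucin folding, at 484 and 73.3. In 13 of the 14 genes 2D hypoxia was the lowest of the 4 libraries, which held for 23.6% of all genes compared. 3D hypoxia was the highest library in 2 of the 14 (14.3%, against 23.7% of all genes compared), a count too small to set apart from that share. They were the trefoil peptide TFF1 (20.7 FPKM, against 0.755, 5.78 and 2.02 in 2D hypoxia, 3D normoxia and 2D normoxia) and the membrane mucin MUC1. MUC1 differed between the supports in hypoxia, at 29.3 FPKM in 3D and 7.91 in 2D, and much less in normoxia, at 5.16 and 5.299. The enzymes of mucin glycosylation in the list stood close together: GCNT3 read 76.1 and 70.04 FPKM, and GALNT12 4.301 and 3.75, in 3D and 2D hypoxia. The list holds no surfactant gene, and of the 8 alveolar type II and lung lineage genes compared, out of 20 listed, 0 were past 2-fold either way (median -0.08, and 0.43 with a mean of at least 5 FPKM).

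**Figure D2:**
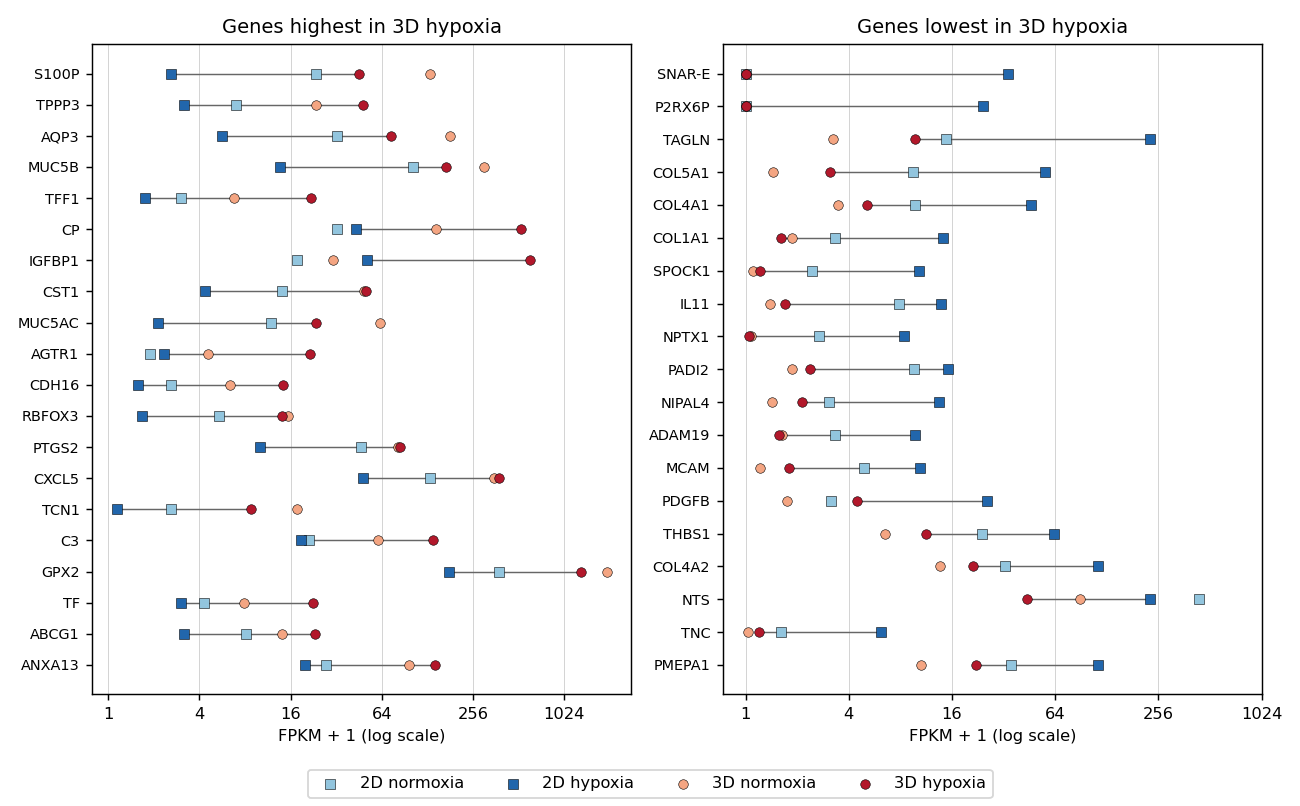
FPKM + 1 on a log scale (x axis) in each of the 4 libraries for the 20 genes highest (left) and most of the 20 lowest (right) in 3D over 2D hypoxia among genes of at least 5 FPKM in the pair, with a line joining the hypoxia libraries. The 20 highest have log2 ratios of 2.85 to 4.14; for the lowest, the square of 2D hypoxia lies far to the right of the other libraries in TAGLN, COL5A1 and COL4A1, and SNAR-E and P2RX6P are listed at 0 outside 2D hypoxia.

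NF-kB and cytokine genes followed. NF-kB is a transcription factor of the inflammatory response, held back by the inhibitor NFKBIA, which it induces itself. Of 20 genes compared out of 28 listed, 10 were at least 2-fold higher and 1 lower, and the median was 1.09. CXCL5, a chemokine that attracts neutrophils, stood at 376 FPKM in 3D hypoxia against 47.1 in 2D hypoxia, with 353 in 3D and 132 in 2D normoxia (log2 ratio in hypoxia 2.97, counting error 0.02). CXCL8, or interleukin 8, stood at 57.02, 7.28, 13.3 and 4.498 FPKM in that order (log2 ratio 2.81). CXCL5 was nearly as high in 3D normoxia as in 3D hypoxia, while CXCL8 was highest in 3D hypoxia by a wide margin. PTGS2, the inducible cyclooxygenase that makes prostaglandins, stood at 82.95 and 80.4 FPKM in the 3D libraries, 45.6 in 2D normoxia and 9.04 in 2D hypoxia, and its log2 ratio in hypoxia of 3.06 was the highest of the list. CXCL1, CXCL2 and CXCL3 read 29.05, 7.26 and 7.31 FPKM in 3D hypoxia and 4.02, 2.52 and 1.76 in 2D hypoxia; these 3 genes are close copies, and reads may be shared among them. NFKBIA stood at 118 and 50.1 FPKM and RELB, an NF-kB subunit, at 38.6 and 14.4, while the subunits RELA (43.5 and 37.3 FPKM) and NFKB1 (15.3 and 16.8 FPKM) differed little. The monocyte chemokine CCL2 was alike on both supports in hypoxia, at 210.2 FPKM in 3D and 219 in 2D. IL11, a cytokine of the interleukin 6 family, went the other way, at 0.7001 FPKM in 3D hypoxia against 12.8 in 2D hypoxia, with 0.389 in 3D and 6.83 in 2D normoxia.

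The 100 bases before the start of 5 of these chemokine genes and of NFKBIA are shown because each holds the same NF-kB-type sequence, GGAATTTCC on either strand, marked in capitals. They are RefSeq promoter sequences of build GRCh38.p14, 5′ to 3′ on the gene's own strand. CXCL8 lies at chr4:73740469-73740568 on the plus strand, CXCL1 at chr4:73869293-73869392 on the plus strand, CXCL5 at chr4:73998678-73998777, CXCL3 at chr4:74038690-74038789 and CXCL2 at chr4:74099196-74099295 on the minus strand, and NFKBIA at chr14:35404750-35404849 on the minus strand.
CXCL8: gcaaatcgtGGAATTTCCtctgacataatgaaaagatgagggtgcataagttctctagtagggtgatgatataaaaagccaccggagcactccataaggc
CXCL1: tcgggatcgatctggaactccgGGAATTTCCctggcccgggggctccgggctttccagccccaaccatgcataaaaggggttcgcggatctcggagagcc
CXCL5: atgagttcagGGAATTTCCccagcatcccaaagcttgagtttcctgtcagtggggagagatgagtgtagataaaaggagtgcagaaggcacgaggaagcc
CXCL3: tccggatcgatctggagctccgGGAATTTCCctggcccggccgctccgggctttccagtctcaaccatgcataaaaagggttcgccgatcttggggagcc
CXCL2: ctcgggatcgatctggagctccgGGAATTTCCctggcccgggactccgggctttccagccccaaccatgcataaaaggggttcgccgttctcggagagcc
NFKBIA: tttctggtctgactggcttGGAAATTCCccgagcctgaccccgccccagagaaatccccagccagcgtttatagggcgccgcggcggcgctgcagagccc

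The capitals begin 78 bases before the start in CXCL1 and CXCL3, 77 in CXCL2, 90 in CXCL5, 91 in CXCL8 and 81 in NFKBIA, where the sequence reads GGAAATTCC, the reverse complement. The CXCL1, CXCL2 and CXCL3 stretches are near copies of each other, so they are not separate instances. In promoter windows of 300 bases (250 before and 50 after the start), GGAATTTCC occurred on either strand in 8 of the 17 list genes with a promoter in the table, in 10 of 342 genes at least 2-fold higher (2.92%), in 3 of 266 at least 2-fold lower (1.13%) and in 0.593% of all 10120 genes compared that had one. Of the 8, the other 2 were ICAM1, an adhesion receptor with a log2 ratio of 1.30, and NFKB1 with -0.12. All of the 8 but NFKB1 are among the 10 higher genes, so the 2.92% largely counts this list again. The list was made of genes tied to NF-kB, so its own share is partly built in. PTGS2, LCN2 and IL11 had no such match in this window. The core of the hypoxia response element, ACGTG on either strand, stood in 24.0% of the higher genes, 32.3% of the lower and 32.7% of all, and in 15 of 27 HIF target genes with a promoter in the table. TGANTCA, an AP-1-type sequence, stood in 10.5%, 7.52% and 6.94% in the same order. A match is a description of letters, and binding was not measured.

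**Figure D3:**
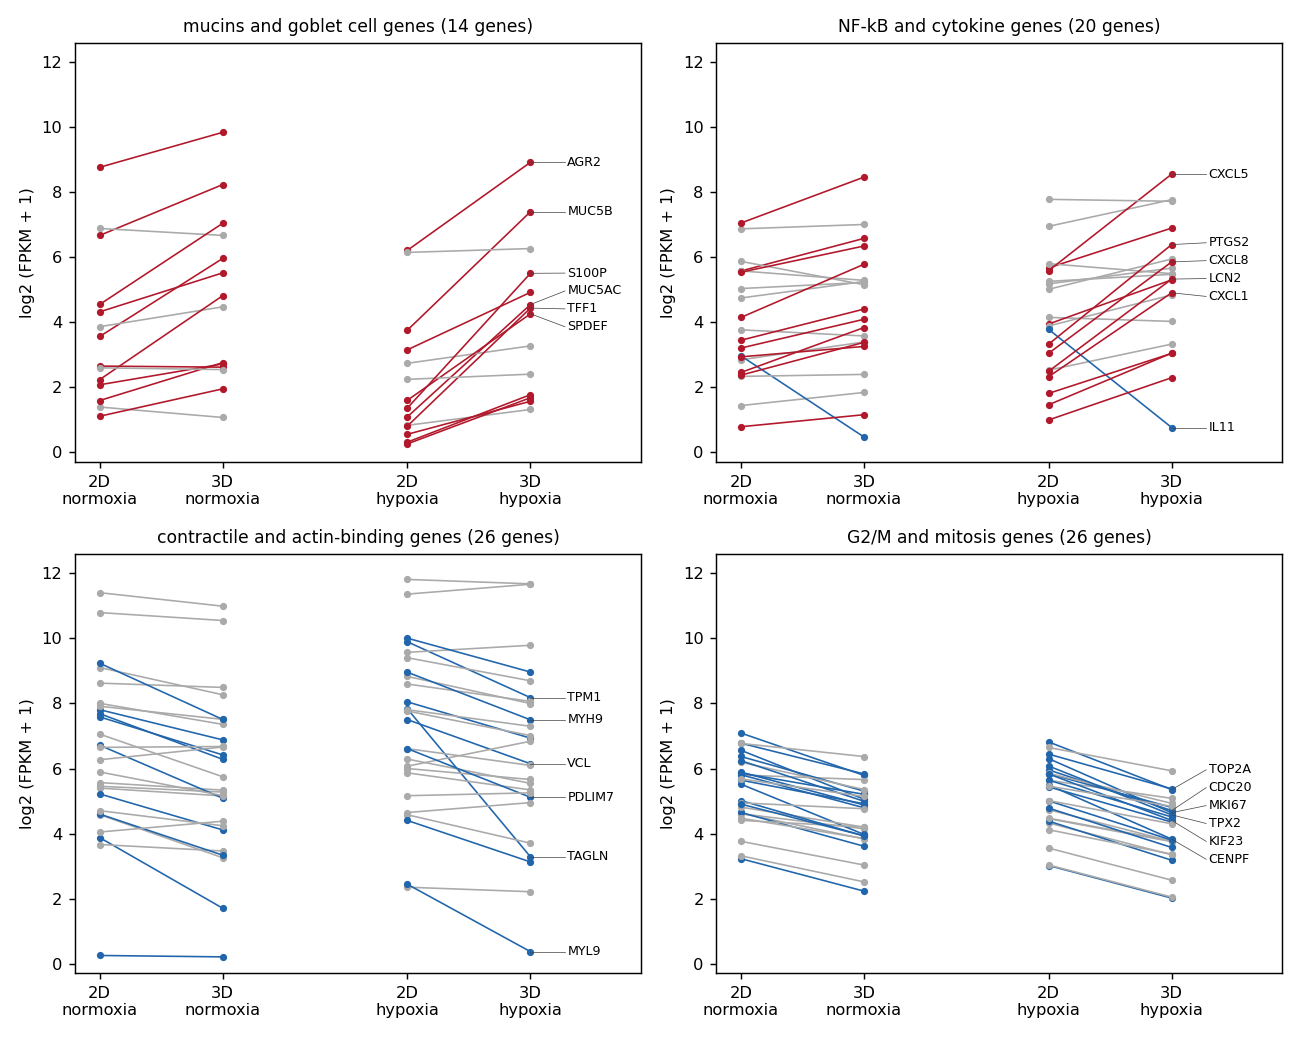
Log2 (FPKM + 1) of each member (y axis) in the normoxia pair and the hypoxia pair, from 2D to 3D, for 4 gene lists; red lines mark genes at least 2-fold higher in 3D hypoxia than in 2D hypoxia, blue lines at least 2-fold lower, grey lines the rest. All 14 goblet cell genes slope up in hypoxia and all 26 mitosis genes slope down, and TAGLN goes from 227 FPKM in 2D hypoxia to 8.75 in 3D hypoxia.

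Enzymes that handle foreign compounds and oxidants formed the next group. Of 16 xenobiotic and alcohol metabolism genes compared out of 23 listed, 8 were 2-fold higher and 0 lower (median 0.96), and of 26 NRF2 target genes 6 were higher and 1 lower (median 0.59). NRF2 is the transcription factor of the response to oxidants, and its inhibitor KEAP1 is known to be mutated in A549 cells. GPX2, a glutathione peroxidase of epithelia, stood at 1311 FPKM in 3D hypoxia against 176 in 2D hypoxia, with 1948 in 3D and 381 in 2D normoxia (log2 ratio in hypoxia 2.89, counting error 0.02). The aldehyde dehydrogenase ALDH3A1, a member of both lists, read 665, 104, 1269 and 449 FPKM in the same order, and the aldo-keto reductase AKR1C1 653, 143, 1068 and 321. Both 3D libraries were above both 2D libraries for 17 of the 26 NRF2 target genes, against 25.8% of all genes. The AKR1C genes are near-identical copies, so that their split is uncertain. HMOX1, the heme oxygenase that NRF2 also controls, went the other way, at 78.3 FPKM in 3D hypoxia and 246 in 2D hypoxia, with 92.2 and 236 in the normoxia libraries. TCN1, a cobalamin carrier placed in the xenobiotic list although it is no enzyme, stood at 7.72 FPKM in 3D hypoxia and 0.138 in 2D hypoxia.

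Plasma proteins usually made by the liver split into a higher and a lower group. Of 21 complement and liver-type plasma protein genes compared out of 29 listed, 9 were 2-fold higher and 3 lower. Their median was 0.21, but 0.01 after rescaling and 0.95 with the filter set at 5 FPKM, so it gives the list no settled level. CP, the copper-carrying ferroxidase ceruloplasmin of the iron list, had the largest log2 ratio among metal-handling genes, at 526 FPKM in 3D hypoxia against 42.5 in 2D hypoxia, with 146 in 3D and 31.5 in 2D normoxia (log2 ratio in hypoxia 3.60, counting error 0.03). Complement component C3 read 139, 17.7, 59.5 and 20.2 FPKM in that order, and CFB, a protease of the alternative complement pathway, 22.4, 2.44, 10.5 and 2.34. All 3 were highest in 3D hypoxia. The fibrinogen chains FGB and FGG were on the lower side, with 16.8 and 21.7 FPKM in 3D hypoxia and 37.5 and 51.2 in 2D hypoxia. The iron carrier transferrin, TF, stood at 21.5 FPKM in 3D hypoxia and 2.04 in 2D hypoxia, and its receptor TFRC at 118 and 166.

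HIF target genes were mostly within 2-fold of each other on the supports. Of 34 compared out of 36 listed, 5 were 2-fold higher in 3D and 1 lower, with a median of 0.41 in the hypoxia pair (0.23 after rescaling) and -0.16 in the normoxia pair, and no member had its lowest value in a hypoxia library. CA9, the carbonic anhydrase used as a marker of low oxygen, stood at 199.7 FPKM in 3D hypoxia and 139 in 2D hypoxia, against 4.05 and 3.999 in normoxia, which left both cultures plainly apart from their normoxia libraries. NDUFA4L2, a mitochondrial protein that lowers respiration in hypoxia, had the largest ratio of the list: it read 12.1 FPKM in 3D hypoxia against 0.957 in 2D hypoxia, with 0.314 in 3D and 0.5002 in 2D normoxia (log2 ratio in hypoxia 2.75, counting error 0.15). Only 3D hypoxia was high. EGLN3, a hydroxylase that marks HIF for destruction, stood at 122 and 48.1 FPKM in 3D and 2D hypoxia, and HILPDA, a lipid droplet protein, at 238 and 79.6. VEGFA, the vessel growth factor, and SLC2A1, a glucose transporter, lay on the other side, at 47.9 and 161 FPKM in 3D and 66.7 and 236 in 2D hypoxia. The transcripts of the factors themselves were close: HIF1A stood at 41.1 and 48.9 FPKM, EPAS1 at 63.3 and 49.8, and ARNT at 10.7 and 12.1. HIF is controlled mainly through its protein, which RNA does not measure.

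In glycolysis, 18 of 25 genes lay above 0 with 1 past 2-fold (median 0.34 in the hypoxia pair, 0.15 after rescaling, and 0.02 in the normoxia pair). That gene, the aldolase ALDOC, stood at 95.01 FPKM in 3D hypoxia against 21.98 in 2D hypoxia, with 8.45 in 3D and 3.49 in 2D normoxia. PGK1, a kinase of the pathway's lower part, read 1598 and 850.2 FPKM in the hypoxia pair and 322 and 286 in the normoxia pair. The platelet-type phosphofructokinase PFKP was lower, at 275 and 429.6 FPKM in hypoxia. Cholesterol synthesis and uptake had a median of 0.33 in hypoxia (0.14 after rescaling) and -0.19 in normoxia, with 1 of 23 genes past 2-fold, on the higher side. Among all genes 3.72% were 2-fold higher, and the counts of 1 in these lists are near that share.

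Among secreted factors IGFBP1, which binds insulin-like growth factors, stood at 604 FPKM in 3D hypoxia against 50.1 in 2D hypoxia, with 29.6 in 3D and 16.5 in 2D normoxia (log2 ratio in hypoxia 3.57 and in normoxia 0.80). INHA, the alpha subunit of inhibin, was likewise high only in 3D hypoxia, at 7.86 FPKM against 0.976, 0.691 and 1.11 in the same order. PDGFB, a growth factor for mesenchymal cells, was high only in 2D hypoxia, at 24.6 FPKM against 3.49 in 3D hypoxia. Of the 26 secreted growth factor genes compared out of 31 listed, 4 were higher and 2 lower. Their median was 0.18, -0.01 after rescaling and -0.11 with no filter on low values, so the list has no settled direction.

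On the lower side, contractile and actin-binding genes stood out. Of 26 compared out of 30 listed, 0 were 2-fold higher and 9 lower, and 21 lay below 0 (median -0.73). Among all genes 3.72% were 2-fold higher and 2.72% lower. In the normoxia pair 9 of the 26 were 2-fold lower and 0 higher (median -0.55). TAGLN, the actin-binding protein transgelin of smooth muscle, stood at 8.75 FPKM in 3D hypoxia against 227 in 2D hypoxia, with 2.26 in 3D and 13.7 in 2D normoxia. On the FPKM + 1 scale it was 23.4-fold lower in 3D than in 2D hypoxia (log2 ratio -4.55, counting error 0.13), against a log2 ratio of -2.17 in normoxia. 2D hypoxia was far above the other 3 libraries. TPM1, a tropomyosin that lies along actin filaments, read 289, 953, 117 and 223 FPKM in that order, MYH9, the heavy chain of non-muscle myosin, 179.8, 498, 76.9 and 205, and VCL, the focal adhesion protein vinculin, 69.9, 181, 32.99 and 104. The cytoplasmic actins ACTB and ACTG1 differed little, at 3279 and 3251 FPKM in 3D hypoxia and 3603 and 2634 in 2D hypoxia, and reads may be shared between these near-identical genes. Of 23 YAP/TAZ target genes compared out of 25 listed, 0 were 2-fold higher and 5 lower (median -0.65), and 2D hypoxia was the highest library in 19 of them, against 25.8% of all genes. In the normoxia pair 6 of the 23 were 2-fold lower and 0 higher (median -0.51). CYR61, a secreted protein and a standard target of YAP, stood at 22.5 FPKM in 3D hypoxia against 119 in 2D hypoxia, with 13.7 in 3D and 49.6 in 2D normoxia, while CTGF, its close relative, read 23.4, 46.1, 26.6 and 27.4. A CArG box, the sequence that serum response factor binds, stood in 7 of 24 contractile genes with a promoter in the table. It stood in 3.01% of the lower genes, 1.46% of the higher and 1.53% of all genes compared. Contractile genes are a kind that this factor is known to drive, so the list's share is partly built in, and binding was not measured. SNAR-E, a small noncoding gene with near-identical copies, and the pseudogene P2RX6P were listed at 33.0 and 23.3 FPKM in 2D hypoxia and at 0 in the other 3 libraries, so no fold is given.

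**Figure D4:**
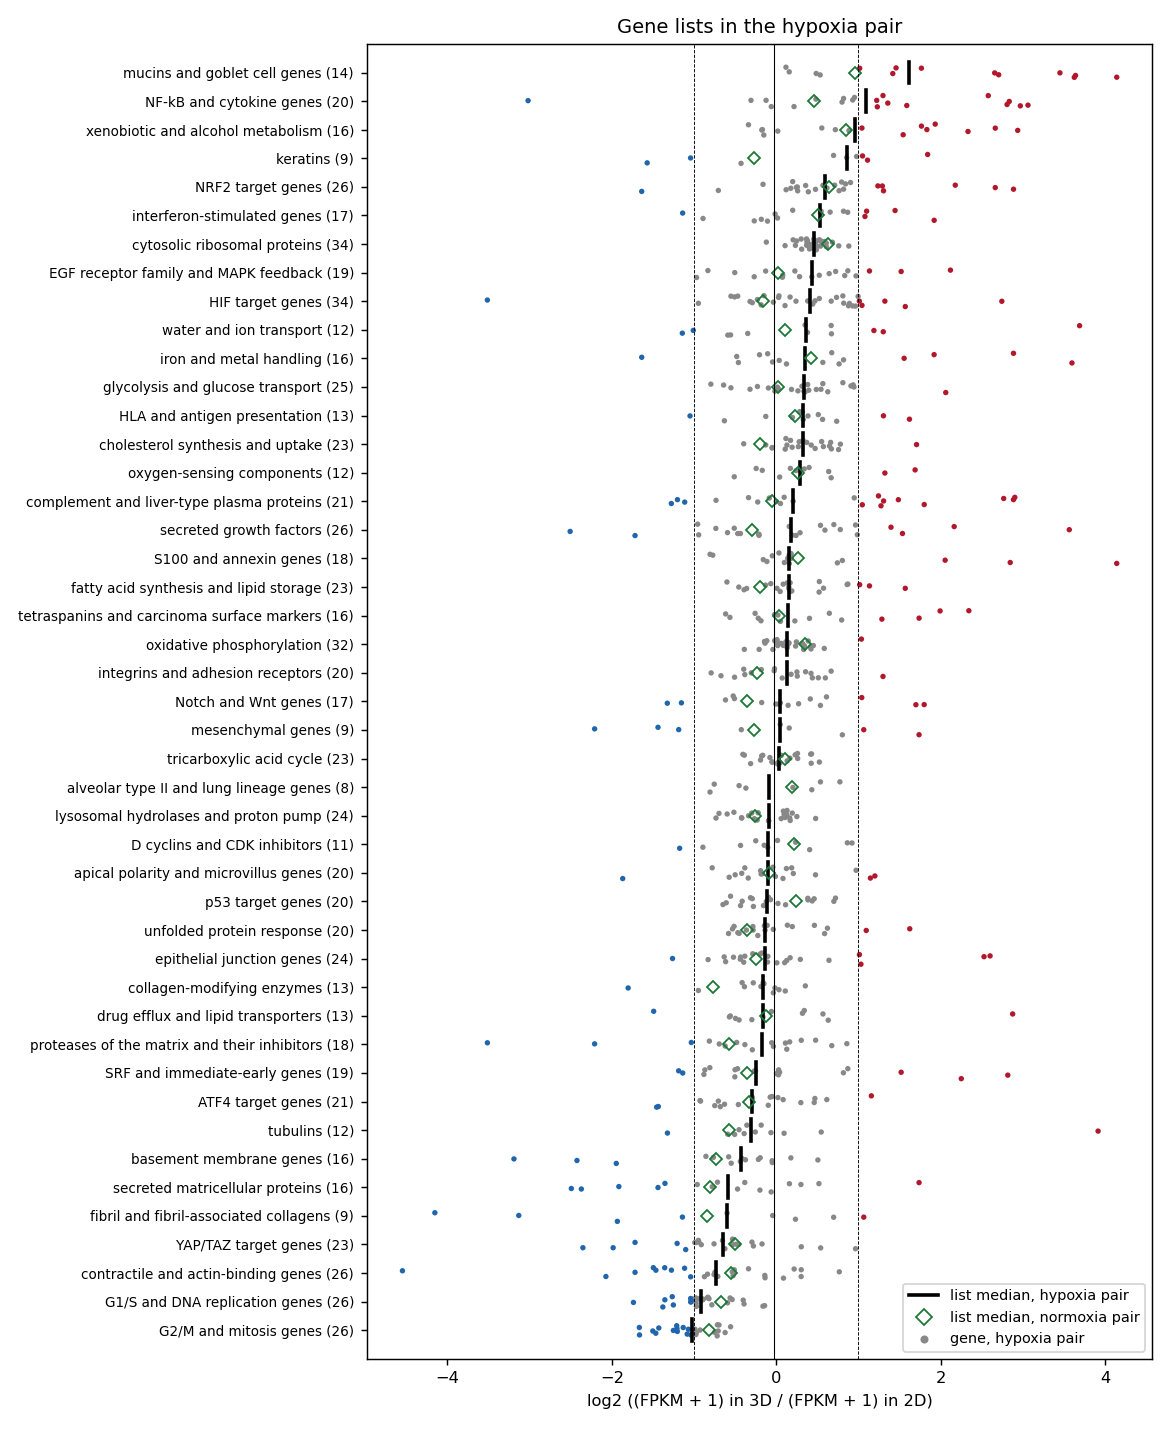
Log2 ratio of 3D to 2D in hypoxia (x axis) for each member of the 45 gene lists with at least 5 members compared (number in brackets), ordered by list median; black bars mark the list median in the hypoxia pair and green diamonds that in the normoxia pair, the solid line the median of all genes and the dashed lines 2-fold. Goblet cell genes (median 1.61) and NF-kB and cytokine genes (1.09) lie at the top, and G1/S (-0.92) and G2/M genes (-1.02) at the bottom.

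Some genes of the extracellular matrix were also 2-fold lower in 3D, though most of those compared were within 2-fold. Of 9 fibril and fibril-associated collagens compared out of 17 listed, 4 were 2-fold lower and 1 higher (median -0.60, but -0.03 with no filter on low values). In the normoxia pair 3 of the 9 were 2-fold lower and 0 higher (median -0.84). Of 16 secreted matricellular proteins compared out of 20 listed, 5 were lower and 1 higher (median -0.59, and -0.33 with a mean of at least 5 FPKM). The normoxia pair had 7 of the 16 lower and 1 higher (median -0.81), so the lower side is not particular to hypoxia. COL5A1 read 2.12 FPKM in 3D hypoxia against 54.6 in 2D hypoxia, with 0.455 in 3D and 8.44 in 2D normoxia (log2 ratio in hypoxia -4.15, counting error 0.07), and in that order COL1A1 read 0.614, 13.2, 0.856 and 2.32. Both encode chains of fibril collagens, and in both 2D hypoxia alone was above 10 FPKM. The 10 fibroblast markers summed to 0.833 FPKM in 3D hypoxia and 14.7 in 2D hypoxia, nearly all of it COL1A1 itself. THBS1, the adhesive protein thrombospondin, read 10.2, 62.2, 5.52 and 22.8 FPKM, and TGFBI, a matrix protein induced by TGF-beta, 602, 1632, 173 and 581. FN1, the matrix protein fibronectin, went the other way, at 475 FPKM in 3D hypoxia against 142 in 2D hypoxia, with 333 in 3D and 139 in 2D normoxia. Of 13 collagen-modifying enzymes only the prolyl hydroxylase P4HA3 was past 2-fold in the hypoxia pair, lower at 6.35 against 24.6 FPKM. The list median was -0.16 there and -0.77 in the normoxia pair, where 5 of the 13 were 2-fold lower and 0 higher.

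Components of the basement membrane, the material that Matrigel supplies, had a median of -0.43 in hypoxia and -0.74 in normoxia over 16 genes compared out of 21 listed, with 3 lower by 2-fold, 0 higher and 14 below 0. COL4A1 and COL4A2 encode the main chains of type IV collagen. COL4A1 stood at 4.08 FPKM in 3D hypoxia against 45.4 in 2D hypoxia, with 2.49 in 3D and 8.803 in 2D normoxia (log2 ratio in hypoxia -3.19), and COL4A2 at 20.3, 113, 12.7 and 31.5 (log2 ratio -2.42). Both genes followed the same order of libraries, with 2D hypoxia highest and 3D normoxia lowest. The widespread laminin chains were nearer to 0, with LAMC1 at 59.4 and 108 FPKM and LAMA5 at 133 and 153.

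COL4A1 and COL4A2 lie head to head, and the stretch between their starts is shown because both genes were lower in 3D and share it. It spans 126 bases, chr13:110307158-110307283 of build GRCh38.p14 on the plus strand from RefSeq, with COL4A1 read leftward from 110307157 and COL4A2 rightward from 110307284.
COL4A1-COL4A2: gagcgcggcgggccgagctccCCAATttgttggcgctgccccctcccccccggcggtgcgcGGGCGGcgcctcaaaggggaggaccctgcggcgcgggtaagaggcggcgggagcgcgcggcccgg

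The capitals mark 1 CCAAT and 1 GGGCGG, letters bound in general by NF-Y and Sp1, found on the plus strand. Searched on both strands, CCAAT stood in 34.6% and GGGCGG in 45.0% of all 35116 promoter windows of 300 bases, so neither is particular to the pair.

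All members of the 2 lists of proliferation genes lay below 0, and part of them passed 2-fold. Of 26 G1/S and DNA replication genes, 9 were 2-fold lower, 0 higher and all 26 below 0 (median -0.92), and of 26 G2/M and mitosis genes, 14 were lower, 0 higher and all 26 below 0 (median -1.02). The 3D hypoxia library was the lowest of the 4 in 25 of the 26 G1/S genes and in all 26 G2/M genes, against 28.4% of all genes. MKI67, the proliferation antigen Ki-67, stood at 23.97 FPKM in 3D hypoxia against 78.1 in 2D hypoxia, with 32.3 in 3D and 93.4 in 2D normoxia (log2 ratio in hypoxia -1.66). TOP2A, the topoisomerase of dividing cells, read 39.9, 112, 54.3 and 135 FPKM in that order. UHRF1, which keeps up DNA methylation through replication, was the lowest of the G1/S list by ratio, at 9.09, 32.6, 12.5 and 29.7 FPKM. The CDK inhibitor CDKN1B read 45.6 FPKM in 3D hypoxia and 23.6 in 2D hypoxia, and CDKN1A, another, 13.98 and 19.2. Cytosolic ribosomal proteins lay on the other side, with 33 of 34 above 0 and 0 past 2-fold (median 0.46, or 0.26 after rescaling, and 0.62 in the normoxia pair); their many pseudogenes can share reads with them.

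Epithelial genes stood on both sides. Of 24 junction genes compared out of 26 listed, 4 were 2-fold higher and 1 lower, with a median of -0.14 (-0.34 after rescaling) and a mean of 0.09, which differ in sign. TJP3, a tight junction scaffold, stood at 15.4 FPKM in 3D hypoxia and 1.71 in 2D hypoxia, and CLDN2, a pore-forming claudin, at 73.02 and 11.8, while CDH1 stood at 35.1 and 34.8. Of 9 keratins compared out of 15 listed, 3 were higher and 2 lower, with a median of 0.86 in hypoxia and -0.27 in normoxia. KRT19, a keratin of simple epithelia, read 87.1 and 23.6 FPKM in 3D and 2D hypoxia, and KRT7, another, 742 and 1528. Of 9 mesenchymal genes compared out of 18 listed, 2 were higher and 3 lower, with VIM at 985 and 882 FPKM. In the ATF4 target list (1 higher, 2 lower of 21, median -0.29, and -0.08 with a mean of at least 5 FPKM) the 2 lower genes were SLC7A5 and SLC3A2, the chains of a transporter of large neutral amino acids, at 214 and 216 FPKM in 3D hypoxia and 588 and 584 in 2D hypoxia.

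The normoxia pair gave the same contrast in other libraries. There, 235 genes (1.87% of 12562) were past 2-fold on the higher side in 3D and 280 (2.23%) on the lower side. Of the 467 genes higher in hypoxia, 161 were also at least 2-fold higher in normoxia, which is 34.5% of the hypoxia list and 68.5% of the normoxia list, and 433 were above 0. Of the 342 lower genes, 151 were also at least 2-fold lower, which is 44.2% of the hypoxia list and 53.9% of the normoxia list, and 329 were below 0. The medians were 1.31 in hypoxia and 0.84 in normoxia for the higher genes, and -1.23 and -0.94 for the lower. The genes were chosen for their size in hypoxia, so that a smaller ratio in normoxia is partly built in. Both 3D libraries lay above both 2D libraries for 82.0% of the higher genes and below both for 89.8% of the lower, against 25.8% and 30.1% of all genes. This order is also partly built in, because the choice fixed how 3D hypoxia stood to 2D hypoxia. All genes were not so chosen, and the shares are not like for like. Across all genes the 2 log2 ratios correlated with a Pearson's r of 0.74, a description over genes that share libraries, depth and gene length.

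**Figure D5:**
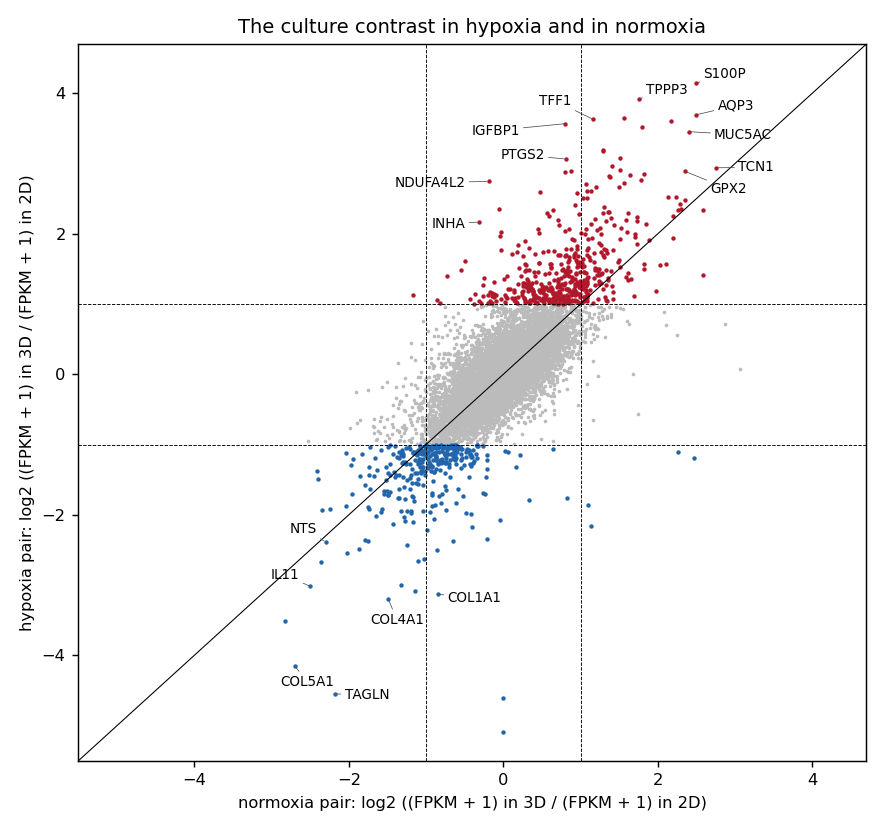
Log2 ratio of 3D to 2D in the normoxia pair (x axis) and in the hypoxia pair (y axis) for 12562 genes; red and blue points are at least 2-fold higher or lower in hypoxia, the solid line marks equal ratios and the dashed lines 2-fold. S100P and MUC5AC lie past 2-fold in both pairs, whereas NDUFA4L2 and INHA lie past it in hypoxia with normoxia ratios of -0.19 and -0.32.

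Gene length moved with the ratio. Genes with a median transcript of up to 1 kb had a median log2 ratio of 0.05 in hypoxia and 0.08 in normoxia (3086 genes), and those over 4 kb had -0.20 and -0.19 (1705 genes). The median length was 1494 bases for the higher genes, 2292 for the lower and 1758.5 for all genes with a length. Of the genes over 4 kb, 1.76% were higher and 4.46% lower, so the lower side holds more long genes. By this measure COL5A1 had 8437 bases, COL4A1 1597, COL4A2 1488 and MYH9 789. The measure is the median over all protein-coding transcripts annotated for a gene, partial ones included. It can fall far below the full-length transcript, so the low values do not show that these lower genes are short. The part of length in these results was not tested, nor was that of the unequal depth.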

How the data were processed

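mRNA of A549 cells was measured in 4 libraries, 1 per group, and the 3D and 2D hypoxia libraries were compared. For each symbol the authors deposited an FPKM value in each library. Per the submitters' processing notes, the genome build was hg19 and the tools were Cuffdiff 2.2.1, SAMtools 0.1.18, TopHat2 2.1.1 and Bowtie2 2.2.8; per the labels' protocols, the kit was TruSeq Stranded mRNA. Annotation, strand setting and scaling count as not given in the sources used here: antisense, readthrough and near-identical genes are therefore uncertain. A listed 0 can be a failed estimate.

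Genes averaging 1 FPKM or more were kept, 1 FPKM was added, and genes at least 2-fold apart were counted, with no test. Depth was taken from the lowest common value of FPKM times length in genes with a single transcript of at least 1000 bases, with lengths from GENCODE 29. Promoter sequences and gene positions are RefSeq's, on GRCh38.p14. Depth, counting errors and counts were tested on simulated data. The 48 lists held 1043 entries, of which 1038 were in the files. The members and lists were chosen with earlier results of these data known. Named genes had at least 5 FPKM in the pair: the 20 highest and 20 lowest ratios, up to 4 per list, the 8 differing most between the pairs, HIF1A, EPAS1, ARNT and the most abundant. Others named are list members chosen to show how a list is made up, after their values were seen. Some genes that meet these rules are not reported here. Alternatives were the pseudocount, the filter, rescaling, centring and, chosen after seeing the data, leaving out genes listed at 0. Python 3.11.15 with numpy 2.4.6, pandas 2.3.3 and matplotlib 3.10.9 was used.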

Additional observations from a re-analysis of the deposited data

Results flagged for a closer look

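Among genes at least 2-fold apart in both pairs, 5 pointed in opposite directions in hypoxia and normoxia, and the difference between the pairs was not tested. HIST1H4E, a replication-dependent histone gene whose transcript has no poly(A) tail, had a log2 ratio of 1.13 in hypoxia and -1.17 in normoxia, with 2.45 FPKM in 3D hypoxia against 0.572 in 2D hypoxia, and 0.469 in 3D against 2.301 in 2D normoxia. TRIM6-TRIM34, a readthrough of neighbouring genes, had -1.86 and 1.09, with 0.00105, 2.64, 2.45 and 0.621 FPKM in the same order. The other 3 are listed at 0 in a library and have no fold: the readthrough BLOC1S5-TXNDC5 (0, 3.46, 1.21 and 0 FPKM in that order), the antisense gene CELSR3-AS1 (0, 1.16, 3.79 and 0 FPKM) and NARR (0, 1.28, 4.63 and 0.0132 FPKM). All 5 had under 5 FPKM in every library, and such overlapping genes are uncertain.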

How the results depend on the processing

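With a pseudocount of 5 FPKM, 207 genes passed 2-fold on the higher side in 3D hypoxia (467 as reported) and 114 on the lower side (342 as reported). With 0.1 FPKM, 554 were lower. A mean of at least 5 FPKM left 218 lower. Rescaling every library to the same sum gave 687 lower and a share of 36.5% higher. In the normoxia pair, 372 genes were higher and 499 lower with a pseudocount of 0.1 FPKM, and 667 were lower after rescaling. Rescaling turned the sign of 9 of 45 list medians: integrins and adhesion receptors (-0.0599), oxidative phosphorylation (-0.0596), fatty acid synthesis and lipid storage (-0.0432), secreted growth factors (-0.00966, and -0.11 with no filter), S100 and annexin genes (-0.0338), tetraspanins and carcinoma surface markers (-0.0575), the tricarboxylic acid cycle (-0.156), Notch and Wnt genes (-0.132) and mesenchymal genes (-0.0987, and -0.0538 with no filter). The alveolar median turned to 0.433 with a mean of at least 5 FPKM. Of 128 named genes past 2-fold, 0 turned sign under rescaling or a pseudocount of 0.1 FPKM, and of those within 2-fold, RPL41 and PKM did on rescaling; on rescaling 12 dropped under 2-fold and 7 passed it. No paired analysis was possible because each group has 1 library. At 1 FPKM on 2 kb, 3D hypoxia rested on 22.6 fragments, which limits genes under 1 FPKM.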

Other observations

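Some innate antiviral and antigen presentation genes also passed 2-fold in hypoxia. Of 17 interferon-stimulated genes compared out of 26 listed, 4 were at least 2-fold higher in 3D and 1 lower (median 0.54, but 0.01 with no filter on low values). IFITM2, a membrane protein that blocks virus entry, stood at 95.9 FPKM in 3D hypoxia against 24.6 in 2D hypoxia, with 104 in 3D and 35.97 in 2D normoxia, though it has a near copy in IFITM3 that can share its reads. Of 13 HLA and antigen presentation genes compared out of 18 listed, 2 were higher and 1 lower (median 0.33, and 0.19 after rescaling). HLA-DMB, which helps to load peptides on class II molecules, stood at 53.2, 16.6, 144 and 50.4 FPKM in the order given for IFITM2. The lower gene was TAP2, a subunit of the transporter that supplies peptides, at 6.88 FPKM in 3D hypoxia and 15.3 in 2D hypoxia.

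Of 19 genes of the EGF receptor family and MAPK feedback compared out of 20 listed, 3 were 2-fold higher in 3D hypoxia and 0 lower (median 0.43, and 0.26 after rescaling). ETV4, a transcription factor downstream of MAP kinase, stood at 46.5 FPKM in 3D hypoxia and 9.92 in 2D hypoxia, and DUSP6, a phosphatase that limits the same pathway, at 11.02 and 3.19. The receptor gene EGFR stood at 41.9 and 75.3 FPKM and IGF1R at 25.6 and 51.1, both within 2-fold. Of 19 SRF and immediate-early genes compared out of 23 listed, 3 were higher and 2 lower (median -0.25, but -0.01 with no filter). FOS stood at 21.1 FPKM in 3D hypoxia and 2.13 in 2D hypoxia, and KLF2, a transcription factor, at 14.5 and 2.26. The lower genes were JUN, a partner of FOS in the AP-1 factor, at 22.004 and 49.6 FPKM, and the phosphatase DUSP1, at 66.04 and 152 FPKM.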
